A study of Homo sapiens with 9 samples.

Results

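YAP1, WWTR1 and 8 genes that act with them or respond to them were followed across the human hepatocellular carcinoma (HCC) cell line MHCC97L and its drug-resistant derivatives. The 10 genes, out of 20030 listed, are YAP1, WWTR1, CYR61, CTGF, NOV, ANKRD1, AMOTL1, AMOTL2, AJUBA and LATS2. The genes were chosen by name, but the choice was made with the levels and fold changes of these same libraries known, so the members' own values are a description and carry no independent weight. The parent MHCC97L was compared with MHCC97L-Src, stably resistant to 4 µmol/L of the Src kinase inhibitor saracatinib, and with MHCC97L-Oxa, stably resistant to 2 µmol/L of the platinum drug oxaliplatin. All lines were grown in DMEM with serum, and RNA of each was sequenced in 3 libraries, 9 in all. The sample labels give the treatment as none for MHCC97L, saracatinib for MHCC97L-Src and oxaliplatin for MHCC97L-Oxa. Each drug is represented by 1 resistant line, so traits of that line, of resistance and of the drug treatment cannot be told apart. The tables use the older symbols CYR61, CTGF and NOV for CCN1, CCN2 and CCN3, and their row named TAZ is tafazzin, whereas the cofactor TAZ is the row WWTR1.

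YAP and TAZ are transcriptional cofactors at the end of the Hippo pathway. When the kinases LATS1 and LATS2 are active, YAP and TAZ are phosphorylated and held outside the nucleus. When the kinases are inactive, YAP and TAZ enter the nucleus and bind the TEAD transcription factors, which recognise DNA. CYR61, CTGF and ANKRD1 are the classic genes switched on by this complex, and AMOTL2, LATS2 and AJUBA are targets whose products also act on the pathway. Src family kinases can act on YAP through phosphorylation, and YAP activity is often high in liver cancer. RNA levels do not show where in the cell the cofactors were, nor their phosphorylation.

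Between 16970486 and 18209213 reads were counted on genes per library. MHCC97L replicate 1 stood apart from the rest of its line. Its log2 levels correlated with the other MHCC97L libraries at r = 0.859 to 0.916, and its deviations ran against the GC content of the genes (Spearman's rho −0.781 across genes, −0.255 to 0.699 in the other libraries). Values without this library, and after a correction of every library for GC content and gene length, are given beside several comparisons with MHCC97L. After that correction edgeR called 11.5% of all genes in MHCC97L-Src, 14.0% in MHCC97L-Oxa and 9.94% between the resistant lines. Both comparisons with the parent use the same MHCC97L libraries. The liver markers ALB, AFP and TTR had 0 counts in all 9 libraries, and a list of 8 hepatocyte and hepatoma markers summed to at most 1.87 CPM (counts scaled to 1000000 counted reads). The keratins KRT8 and KRT18 were abundant. The 5 epithelial markers summed to 3371 to 5976 CPM in MHCC97L, 4689 to 6377 CPM in MHCC97L-Src and 2988 to 3203 CPM in MHCC97L-Oxa. Of these 5, 4 reached 10 counts in a library of MHCC97L, and 2 did so in each resistant line. The sums came almost entirely from KRT8 and KRT18, so they do not describe the other markers. EPCAM never exceeded 2 counts, and KRT19 never exceeded 11. CDH1 was low in every line and lowest with resistance. Its counts were 19, 19 and 15 for the parent, 5, 2 and 4 with saracatinib resistance, and 3, 4 and 2 with oxaliplatin resistance. The 6 fibroblast markers summed to 107 to 202 CPM in MHCC97L, 70.4 to 89.7 CPM in MHCC97L-Src and 137 to 154 CPM in MHCC97L-Oxa. Most of this was COL1A1, at 60.2 to 83.2 CPM over all libraries, and DCN. DCN had 40.5 to 128 CPM in MHCC97L, 9.60 to 25.4 CPM in MHCC97L-Src and 60.9 to 69.3 CPM in MHCC97L-Oxa. LUM had 0.471 to 12.5 CPM over all libraries. COL3A1 had at most 9 counts, PDGFRA at most 1 and COL1A2 at most 2. Of 5 endothelial markers, the summed level was 2.22 to 2.65 CPM in MHCC97L, 11.9 to 15.6 CPM in MHCC97L-Src and 1.43 to 1.80 CPM in MHCC97L-Oxa, mostly from CDH5, with KDR at 0. The 5 blood cell markers summed to 50.5 to 81.0 CPM in MHCC97L, 78.0 to 96.6 CPM in MHCC97L-Src and 149 to 152 CPM in MHCC97L-Oxa, mostly from CD68, with PTPRC and CD3E at 0. The part of these differences in the results was not tested. In bulk RNA, fewer cells of a type and less RNA per cell cannot be told apart.

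CYR61 was lower in both resistant lines and CTGF in MHCC97L-Src, whereas NOV was higher in MHCC97L-Src than in MHCC97L-Oxa. The 3 genes encode secreted matrix-associated proteins of the CCN family. CYR61 (chr1:85580761-85583962 in GRCh38, plus strand) promotes adhesion and angiogenesis. It had 204, 251 and 271 CPM in the MHCC97L libraries, 37.8, 35.0 and 39.2 CPM in MHCC97L-Src, and 78.6, 92.5 and 84.5 CPM in MHCC97L-Oxa. The 3 lines did not overlap. In edgeR's quasi-likelihood fit over all genes, with Benjamini-Hochberg adjustment, the log2 fold change of CYR61 was −2.64 ± 0.24 (SE, adjusted p = 0.0033) for MHCC97L-Src against MHCC97L, a level 6.21-fold lower. For MHCC97L-Oxa against MHCC97L it was −1.50 ± 0.21 (adjusted p = 0.0271), or 2.83-fold lower. MHCC97L-Src was lower than MHCC97L-Oxa as well, at −1.14 ± 0.12 (adjusted p = 6.51e-04), or 2.2-fold.

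CTGF (chr6:131948176-131951373, minus strand) encodes connective tissue growth factor, which drives matrix deposition. The MHCC97L libraries had 27.1, 18.3 and 18.4 CPM of CTGF. The level was 2.94, 1.47 and 3.98 CPM in MHCC97L-Src, on 51, 25 and 70 counts, and 14.8, 17.2 and 13.6 CPM in MHCC97L-Oxa. All MHCC97L-Src libraries lay far below the others, and the MHCC97L-Oxa libraries lay just below MHCC97L. The log2 fold change was −2.86 ± 0.46 (SE, edgeR adjusted p = 0.0214) in MHCC97L-Src and −0.46 ± 0.30 (adjusted p = 0.350) in MHCC97L-Oxa. CTGF was 5.27-fold lower in MHCC97L-Src than in MHCC97L-Oxa (log2 fold change −2.40 ± 0.29, edgeR adjusted p = 0.0015).

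NOV encodes a CCN protein often described as a counterpart of CTGF. It had 6.17, 2.14 and 2.17 CPM in MHCC97L, 8.65, 8.07 and 10.3 CPM in MHCC97L-Src, and 3.79, 2.85 and 3.04 CPM in MHCC97L-Oxa. Every MHCC97L-Src library was above every other library. MHCC97L-Src was 2.88-fold above MHCC97L-Oxa (log2 fold change 1.53 ± 0.22, edgeR adjusted p = 0.00423). Against MHCC97L the log2 fold change of 1.47 ± 0.50 did not pass (adjusted p = 0.119), and it was called without MHCC97L replicate 1 (2.11 ± 0.38, adjusted p = 0.0142) and after the GC and length correction (1.82 ± 0.30, adjusted p = 0.0127). In MHCC97L-Oxa the log2 fold change of NOV was −0.06 ± 0.49 (adjusted p = 0.944), and 0.63 ± 0.30 (adjusted p = 0.204) without that library. On the length-adjusted FPKM scale, the ratio of NOV to CTGF was 0.156 ± 0.0593 (SD, n = 3) in the parent, 3.51 ± 1.21 with saracatinib resistance and 0.204 ± 0.0419 with oxaliplatin resistance. NOV was thus the more abundant of the pair in MHCC97L-Src alone, in each of its 3 libraries.

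**Figure D1:**
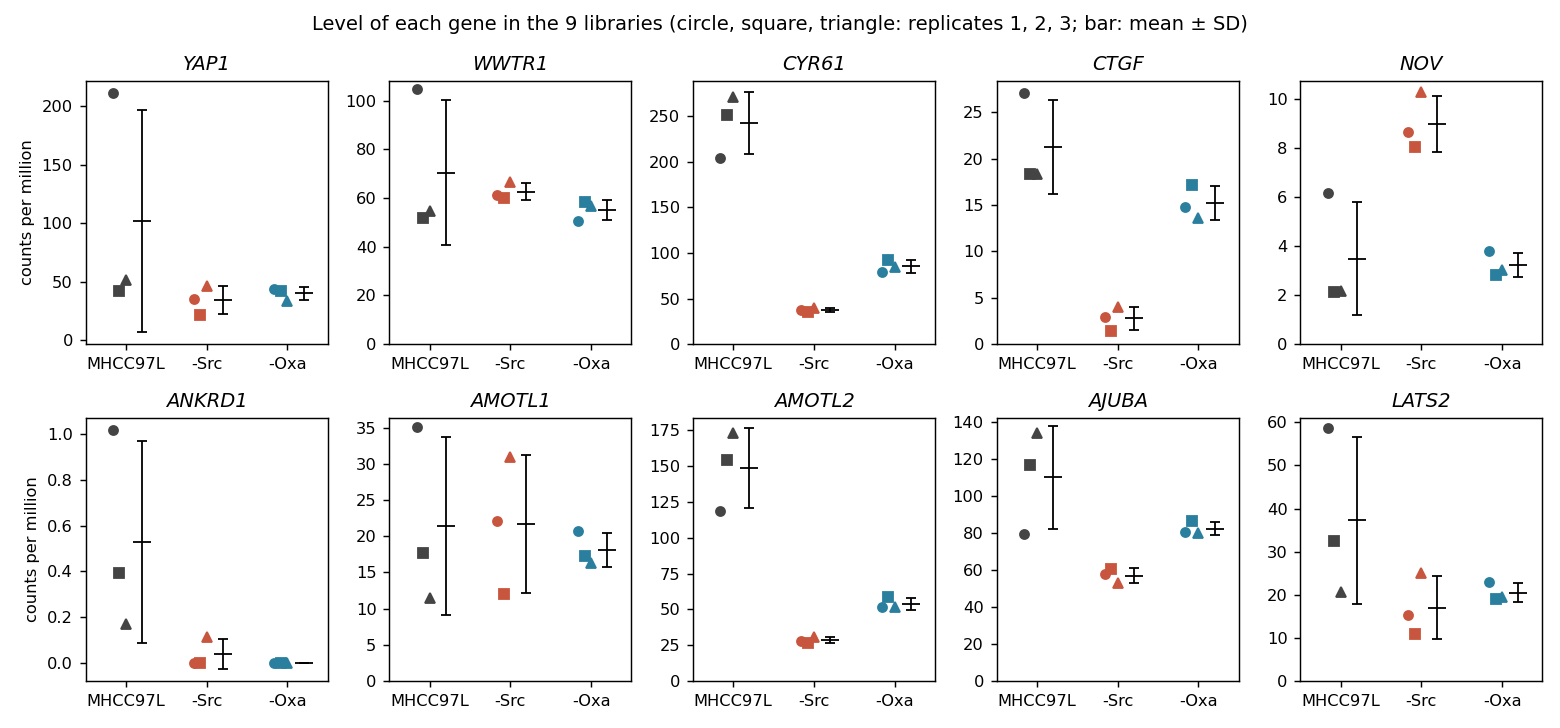
CPM of each of the 10 genes in the 9 libraries, by line, with points for the replicates and bars for the mean ± SD (n = 3). CYR61 and AMOTL2 step down from MHCC97L to MHCC97L-Oxa to MHCC97L-Src without overlap, NOV is highest in MHCC97L-Src, and YAP1 in MHCC97L replicate 1 stands at 211 CPM.

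The upstream sequence of CTGF holds the DNA word that TEAD factors recognise, GGAATG, 3 times within 250 bases of the RefSeq transcript start (build GRCh38.p14). It is shown because CTGF had the largest difference between the resistant lines among the 9 tested members. The window is chr6:131951373-131951622 on the minus strand, read 5′ to 3′ toward the gene, with the matches in capitals:
CTGF: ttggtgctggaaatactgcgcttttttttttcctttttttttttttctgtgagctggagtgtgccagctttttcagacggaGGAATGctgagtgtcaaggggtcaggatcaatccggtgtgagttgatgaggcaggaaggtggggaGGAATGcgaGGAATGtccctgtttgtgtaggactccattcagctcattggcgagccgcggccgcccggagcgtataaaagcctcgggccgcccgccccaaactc

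RefSeq windows were available for 8 of the 10 genes, 11 windows in all since WWTR1, AMOTL2 and AJUBA have 2 starts each. GGAATG, searched on both strands, occurred in 5 windows of 5 genes. Of 35116 windows of the same length over all genes, 11.89% held at least 1 match, 0.9397% at least 2 and 0.08258% at least 3. ANKRD1 had 2 matches, and YAP1, AMOTL2 and AJUBA had 1 each, AMOTL2 and AJUBA in their second window. WWTR1, AMOTL1 and LATS2 had none. The word TGACTCA, which AP-1 factors recognise, was searched likewise and was in 4.203% of all windows and in 0 of the 11 windows of these 8 genes. The sites with 12 bases on either side are given below, each as 30 bases with the match in capitals. On the AMOTL2 line the match reads CATTCC, the same word on the other strand.
ANKRD1, chr10:90921290-90921319, minus strand: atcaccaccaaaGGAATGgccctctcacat
ANKRD1, chr10:90921198-90921227, minus strand: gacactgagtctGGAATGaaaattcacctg
YAP1, chr11:102110273-102110302, plus strand: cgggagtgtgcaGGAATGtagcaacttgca
AMOTL2, chr3:134374499-134374528, minus strand: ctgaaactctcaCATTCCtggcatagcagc
AJUBA, chr14:22976884-22976913, minus strand: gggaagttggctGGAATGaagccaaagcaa

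**Figure D2:**
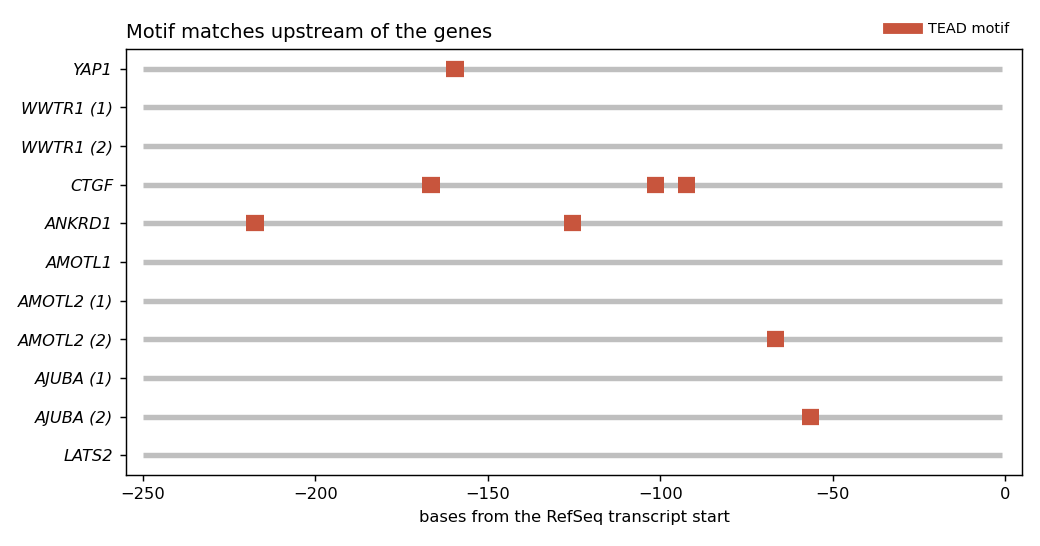
Position of the TEAD word (GGAATG) in the 250 bases before each RefSeq transcript start, in bases from the start, with 1 bar per window and the window number in parentheses where a gene has 2. CTGF holds 3 TEAD words, 2 of them starting 104 and 95 bases before the start, and ANKRD1 holds 2.

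ANKRD1 (chr10:90912096-90921276, minus strand), a nuclear ankyrin repeat protein best known from heart and skeletal muscle, was near the limit of detection. The MHCC97L libraries held 18, 7 and 3 counts and those of MHCC97L-Src 0, 0 and 2, whereas every MHCC97L-Oxa library was at 0. These counts were too low for the count filter, so ANKRD1 is the member without a test in the filtered fits. The fit without a filter included all 10 members, and its values for ANKRD1 are not given here. The MHCC97L total of 28 counts against 2 in MHCC97L-Src is a ratio of 13.6 at equal depth (95% exact interval 3.43 to 118, counting error only). Of the 28 counts, 18 were from MHCC97L replicate 1, and without it the ratio was 7.26 (1.55 to 68.2) on 10 counts. Against the floor of 3 counts per library, the mean MHCC97L level was at least 3.16-fold above MHCC97L-Oxa, and at least 1.68-fold without MHCC97L replicate 1, when only replicate 2 was above the floor.

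AMOTL2 (chr3:134355874-134375479, minus strand), an angiomotin-like protein that binds YAP and holds it at cell junctions, moved as CYR61 did. Its level was 119, 154 and 173 CPM in MHCC97L, 28.2, 26.6 and 30.6 CPM in MHCC97L-Src, and 51.3, 58.5 and 51.5 CPM in MHCC97L-Oxa. The 3 lines did not overlap. The log2 fold change was −2.33 ± 0.26 (SE, edgeR adjusted p = 0.00693) in MHCC97L-Src and −1.46 ± 0.23 (adjusted p = 0.0369) in MHCC97L-Oxa. MHCC97L-Src was below MHCC97L-Oxa at −0.87 ± 0.13 (edgeR adjusted p = 0.00478).

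AMOTL1 (chr11:94706431-94876753, plus strand), the paralog of AMOTL2, showed no such order. It had 35.1, 17.7 and 11.5 CPM in MHCC97L, 22.1, 12 and 31.0 CPM in MHCC97L-Src, and 20.7, 17.2 and 16.4 CPM in MHCC97L-Oxa. The 3 lines overlapped, and its log2 fold changes lay between −0.20 and 0.29, all with edgeR adjusted p of 0.586 or more.

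AJUBA (chr14:22971174-22982642, minus strand), a LIM protein that restrains LATS kinases, had 79.3, 117 and 134 CPM in MHCC97L, 57.6, 60.6 and 52.9 CPM in MHCC97L-Src, and 80.6, 86.4 and 79.9 CPM in MHCC97L-Oxa. The MHCC97L-Src libraries were the lowest of the 9, and MHCC97L-Oxa fell within the range of MHCC97L. Its log2 fold change was −0.89 ± 0.29 (SE, edgeR adjusted p = 0.112) in MHCC97L-Src, −0.42 ± 0.26 (adjusted p = 0.322) in MHCC97L-Oxa and −0.47 ± 0.13 (adjusted p = 0.0719) between the resistant lines. Without MHCC97L replicate 1 the first became −1.07 ± 0.18 (adjusted p = 0.00982) and the second −0.55 ± 0.08 (adjusted p = 0.00705). After the GC and length correction AJUBA was called in MHCC97L-Src (−1.03, adjusted p = 0.0286) and between the resistant lines (−0.51, adjusted p = 0.0266).

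LATS2 (chr13:20973032-21061547, minus strand), the kinase that phosphorylates YAP and TAZ, had 58.6, 32.5 and 20.6 CPM in MHCC97L, 15.3, 10.8 and 25.0 CPM in MHCC97L-Src, and 23.0, 19.1 and 19.5 CPM in MHCC97L-Oxa. The lines overlapped. Its log2 fold change was −1.06 ± 0.44 (SE, edgeR adjusted p = 0.155) in MHCC97L-Src and −0.82 ± 0.38 (adjusted p = 0.233) in MHCC97L-Oxa. Without MHCC97L replicate 1 these were −0.61 ± 0.36 (edgeR adjusted p = 0.342) and −0.33 ± 0.23 (adjusted p = 0.379).

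The cofactor genes themselves showed no call in any comparison. YAP1 (chr11:102110461-102233423, plus strand) had 211, 42.6 and 51.8 CPM in MHCC97L, 35.6, 21.7 and 46.2 CPM in MHCC97L-Src, and 44.3, 42.6 and 33.9 CPM in MHCC97L-Oxa. MHCC97L replicate 1 was far above all others, which lay within 21.7 to 51.8 CPM. The log2 fold change of YAP1 in MHCC97L-Src was −1.46 ± 0.56 (SE, edgeR adjusted p = 0.137) with that library and −0.41 ± 0.28 (adjusted p = 0.410) without it. In MHCC97L-Oxa it was −1.27 ± 0.54 (adjusted p = 0.219) with it and −0.18 ± 0.14 (adjusted p = 0.437) without. After the GC and length correction the values were −0.45 ± 0.21 (adjusted p = 0.2003) and −0.43 ± 0.21 (adjusted p = 0.206). Leaving out MHCC97L replicate 2 instead gave calls, at −1.74 (adjusted p = 0.0180) in MHCC97L-Src and −1.53 (adjusted p = 0.0379) in MHCC97L-Oxa. Between the resistant lines, which do not involve MHCC97L, YAP1 differed by −0.19 ± 0.22 (edgeR adjusted p = 0.688).

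WWTR1 (chr3:149517235-149736714, minus strand), which encodes TAZ, had 105, 51.8 and 54.7 CPM in MHCC97L, 61.2, 60.0 and 66.5 CPM in MHCC97L-Src, and 50.4, 58.3 and 56.7 CPM in MHCC97L-Oxa. Again MHCC97L replicate 1 was the high library, and the other 8 lay close together. The log2 fold change was −0.08 ± 0.29 (SE, edgeR adjusted p = 0.873) in MHCC97L-Src and −0.32 ± 0.28 (adjusted p = 0.478) in MHCC97L-Oxa, with its sign turning under several settings, to 0.87 ± 0.31 (adjusted p = 0.115) in MHCC97L-Src after the GC and length correction. Set against MHCC97L-Oxa, MHCC97L-Src differed by 0.24 ± 0.12 (adjusted p = 0.308), and 0.53 ± 0.12 (adjusted p = 0.0311) after correction for GC content and length.

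Per length, CYR61 was the most abundant of the 10 genes in each line, at 102 ± 17.2 FPKM (SD, n = 3) in MHCC97L, 16.0 ± 1.16 FPKM in MHCC97L-Src and 36.4 ± 3.05 FPKM in MHCC97L-Oxa. In MHCC97L it was followed by AMOTL2 (22.7 ± 4.52 FPKM) and AJUBA (22.5 ± 5.86 FPKM), whose libraries overlapped. YAP1, WWTR1, CTGF and LATS2 came next at mean levels of 14.0, 9.73, 7.17 and 5.06 FPKM, each overlapping its neighbour. The place of YAP1 in this order rested on MHCC97L replicate 1, without which WWTR1 (7.33 FPKM) stood above YAP1 (6.41 FPKM) and CTGF (6.11 FPKM), and AJUBA (25.8 FPKM) above AMOTL2 (25.2 FPKM). AMOTL1 and NOV overlapped at 1.44 and 1.19 FPKM, and ANKRD1 was last at 0.151 FPKM. Without MHCC97L replicate 1 the means of AMOTL1, NOV and ANKRD1 were 0.996, 0.746 and 0.0561 FPKM. In MHCC97L-Src the order after CYR61 was AJUBA (11.8 FPKM), WWTR1 (8.51 FPKM), YAP1 (4.70 FPKM) and AMOTL2 (4.25 FPKM), so that AMOTL2 moved below both cofactor genes, within the spread of YAP1. NOV (3.0 FPKM) stood above LATS2 (2.06 FPKM) and AMOTL1 (1.47 FPKM) there, and CTGF (0.929 FPKM) above ANKRD1 only, with NOV and LATS2, LATS2 and AMOTL1, and AMOTL1 and CTGF overlapping. In MHCC97L-Oxa the order was CYR61, AJUBA (16.8 FPKM), AMOTL2 (8.35 FPKM), WWTR1 (7.76 FPKM), CTGF (5.51 FPKM), YAP1 (5.42 FPKM), LATS2 (2.64 FPKM), AMOTL1 (1.18 FPKM) and NOV (1.11 FPKM), with AMOTL2 and WWTR1, CTGF and YAP1, and AMOTL1 and NOV overlapping.

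In MHCC97L-Src against MHCC97L, 3 of the 9 tested members were called lower (CYR61, AMOTL2, CTGF) and 0 higher at an edgeR adjusted p under 0.05, with NOV also called higher by DESeq2. Of all 12037 genes tested, edgeR called 0.698% lower and 1.43% higher, and DESeq2 11.6% lower and 6.01% higher. Without MHCC97L replicate 1, 4 members were called lower (with AJUBA) and 1 higher (NOV), where 1.94% of all genes were called lower and 3.58% higher. By a looser rule, a p under 0.05 before adjustment and a change of more than 1 log2 unit in either direction, 6 members passed, beside 24.6% of all genes. Libraries of the lines did not overlap for 4 members lower and 1 higher, beside 12.2% and 18.3% of all genes. The median log2 fold change was −1.06 over the 9 members and −0.16 over all genes tested. Without MHCC97L replicate 1 these medians were −0.61 and −0.04. The CTGF call was lost without MHCC97L replicate 3 or without any 1 MHCC97L-Src library (adjusted p = 0.0823 to 0.108), and that of AMOTL2 without MHCC97L-Src replicate 3 (adjusted p = 0.0514).

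In MHCC97L-Oxa against MHCC97L, 2 of the 9 tested members were called lower (CYR61, AMOTL2) and 0 higher by edgeR, and the same by DESeq2, while edgeR called 0.182% of 12064 genes lower and 0.771% higher, and DESeq2 2.74% and 4.83% of the genes it tested. Without MHCC97L replicate 1, 3 members were called lower (with AJUBA) and 0 higher, beside 6.60% and 11.9% of all genes. By the looser rule 3 members passed, YAP1 among them, beside 16.2% of all genes. Libraries did not overlap for 3 members lower and 0 higher, beside 10.5% and 19.1% of all genes. The median log2 fold change was −0.46 over the members and −0.19 over all genes. Without MHCC97L replicate 1 these medians were −0.22 and 0.001. The calls of CYR61 and AMOTL2 were lost without MHCC97L replicate 3 (adjusted p = 0.132 and 0.152) and without any 1 MHCC97L-Oxa library (adjusted p = 0.213 to 0.262), with log2 fold changes of −1.33 to −1.55.

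Between the resistant lines, 3 of the 9 tested members were called lower in MHCC97L-Src (CYR61, CTGF, AMOTL2) and 1 higher (NOV), with 2.52% of 11994 genes called lower and 2.12% higher. By the looser rule 3 members passed, beside 4.01% of all genes. Libraries did not overlap for 4 members lower and 2 higher, beside 14.4% and 13.2% of all genes. The median log2 fold change was −0.23 over the members and −0.02 over all genes. The members' median was −0.04 without MHCC97L-Src replicate 2 and −0.40 without MHCC97L-Src replicate 3. Without MHCC97L-Oxa replicate 2, AMOTL2 no longer passed (log2 fold change −0.81, adjusted p = 0.0571), while CYR61, CTGF and NOV passed without each single library in turn. With all 9 libraries in 1 fit, CYR61 and CTGF were called, whereas NOV (adjusted p = 0.232) and AMOTL2 (adjusted p = 0.126) were not. Apart from that fit, this comparison does not use the MHCC97L libraries.

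**Figure D3:**
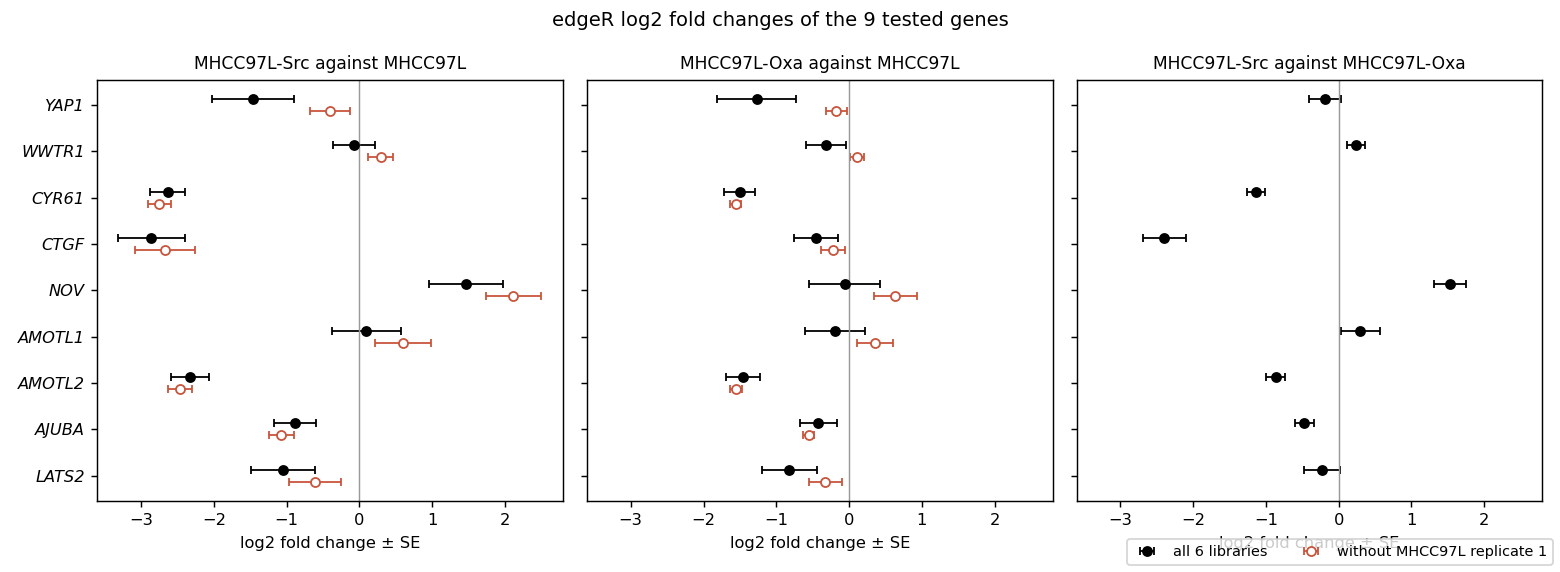
Log2 fold changes ± SE from edgeR for the 9 tested members in the 3 comparisons, with filled points for all 6 libraries and open points without MHCC97L replicate 1. CYR61, CTGF and AMOTL2 lie left of 0 by more than their SE in all panels, and YAP1 moves from −1.46 to −0.41 in MHCC97L-Src when that library is left out.

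AMOTL2 followed CYR61 from library to library. Over the 9 libraries, the Pearson r of its log2 CPM with CYR61 was 0.996, the highest of 10352 genes, and in FPKM its ratio to CYR61 was 0.222 ± 0.00728 (SD, n = 3) for the parent, 0.265 ± 0.00246 for MHCC97L-Src and 0.230 ± 0.00421 for MHCC97L-Oxa. The genes next most like CYR61 were DUSP2, PLAC8, SMAD6 and GLI2 (r = 0.991 to 0.977). Over the 6 libraries of the resistant lines alone, they were ABCC3, FN1, AMOTL2, LGMN and ITGB5 (r = 0.999 to 0.996). NOV ran the other way, with r = −0.835 over the 9 libraries and −0.996 over the 6, the lowest of all 10352 genes. CTGF was most like ID2, MAOB, AARD, WIPF1 and TLN2 over the 9 libraries (r = 0.976 to 0.965) and like EPAS1, TNC, OLR1, SLC22A23 and C16orf45 over the 6 (r = 0.998 to 0.997). Its r with CYR61 was 0.849 over the 9 libraries. CYR61 had r = 0.503 with YAP1 and −0.127 with WWTR1 over the 9, and 0.351 and −0.831 over the 6. These values describe the libraries only, since the points fall into 3 lines and share their scaling.

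**Figure D4:**
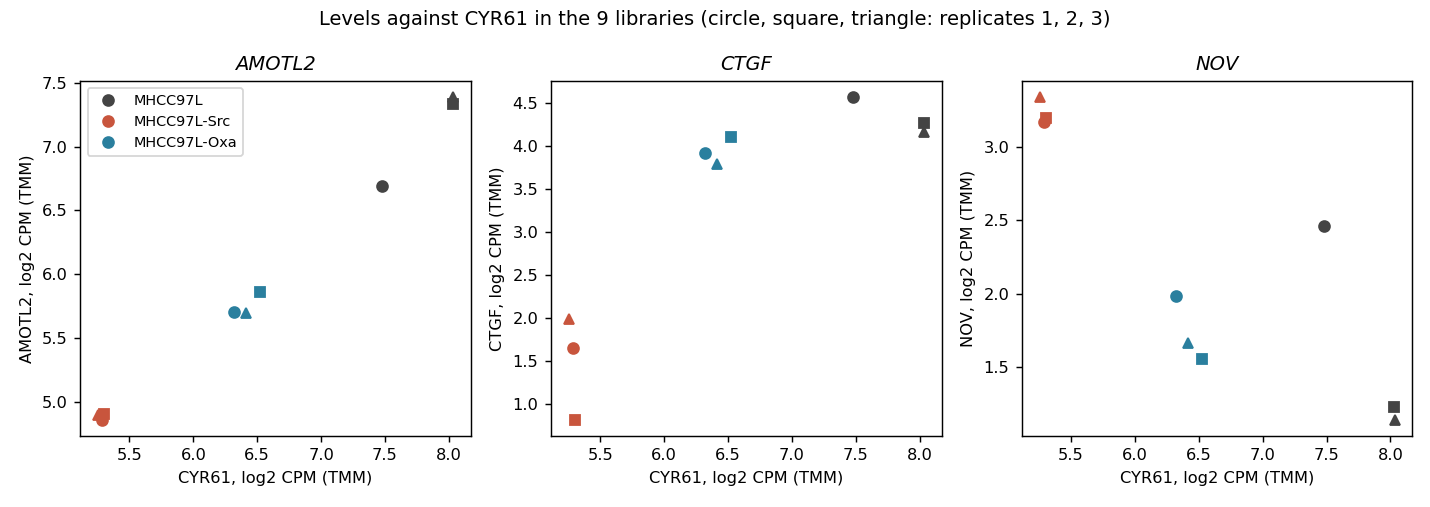
Log2 CPM (TMM scaled) of AMOTL2, CTGF and NOV against that of CYR61 in the 9 libraries, coloured by line, with marker shapes for replicates 1 to 3. AMOTL2 rises with CYR61 across the lines, CTGF in MHCC97L-Src lies far below both other lines, and NOV is highest in MHCC97L-Src, where CYR61 is lowest.

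The genes around the members were taken from 4 lists of 52 genes in all. At an unadjusted p under 0.05, 20.1% of all genes were lower and 9.40% higher in MHCC97L-Src against MHCC97L, 13.6% and 8.84% in MHCC97L-Oxa against MHCC97L, and 9.76% and 9.75% between the resistant lines, where DESeq2 called 3.73% lower and 3.27% higher. Counts by these rules are to be read against those shares. Of the 4 TEAD genes, which encode the DNA-binding partners of YAP and TAZ, 0 were called by edgeR in any comparison. At an unadjusted p under 0.05, 1 was lower in each. It was TEAD1 in MHCC97L-Src and between the resistant lines, and TEAD4 in MHCC97L-Oxa. DESeq2 called TEAD1 lower in MHCC97L-Src. TEAD1 had 149, 19.4 and 61.0 CPM in MHCC97L, 18.6, 16.6 and 18.4 CPM in MHCC97L-Src, and 18.6, 31.1 and 35.4 CPM in MHCC97L-Oxa. Its MHCC97L libraries were widely spread, and its log2 fold change was −1.97 ± 0.59 (SE, edgeR adjusted p = 0.105) in MHCC97L-Src and −1.36 ± 0.61 (adjusted p = 0.228) in MHCC97L-Oxa. These became −1.09 ± 0.39 (adjusted p = 0.139) and −0.43 ± 0.49 (adjusted p = 0.582) without MHCC97L replicate 1, and without MHCC97L replicate 2 they were called, at −2.36 (adjusted p = 0.00196) and −1.72 (adjusted p = 0.0180). After the GC and length correction they were −0.62 (adjusted p = 0.123) and −0.33 (adjusted p = 0.397). TEAD4, per length the most abundant TEAD gene in each line, had 57.3 ± 11.1, 41.1 ± 5.23 and 37.1 ± 1.43 FPKM (SD, n = 3) in MHCC97L, MHCC97L-Src and MHCC97L-Oxa, with log2 fold changes of −0.36 ± 0.28 (adjusted p = 0.392) and −0.62 ± 0.24 (adjusted p = 0.209). TEAD2 and TEAD3 had log2 fold changes between −0.19 and 0.46 in the 3 comparisons, all with adjusted p of 0.289 or more. TEAD4 was called lower in both resistant lines after the GC and length correction (log2 fold changes −0.92 and −1.04), and TEAD2 in MHCC97L-Oxa (−0.51, adjusted p = 0.0367). Without MHCC97L replicate 1, TEAD4 and the TEAD cofactor VGLL4 were called in MHCC97L-Oxa, TEAD4 lower (−0.74, adjusted p = 0.00227) and VGLL4 higher (0.42, adjusted p = 0.0359). The TEAD cofactor gene VGLL3, named after its values were seen, had 123, 8.45 and 45.1 CPM in MHCC97L, 7.85, 5.19 and 6.37 CPM in MHCC97L-Src, and 6.59, 10.1 and 10.97 CPM in MHCC97L-Oxa. The spread in MHCC97L was wide, and its lowest library overlapped MHCC97L-Oxa. Its log2 fold change was −3.06 ± 0.77 (edgeR adjusted p = 0.0837) in MHCC97L-Src and −2.60 ± 0.78 (adjusted p = 0.167) in MHCC97L-Oxa, and −1.96 (adjusted p = 0.0779) and −1.47 (adjusted p = 0.177) without MHCC97L replicate 1. VGLL3 was called lower in both by DESeq2 (adjusted p = 5.03e-04 and 0.00932), after the GC and length correction at the smaller log2 fold changes of −1.32 and −1.26 (adjusted p = 0.0491 and 0.0453), and without MHCC97L replicate 2 (adjusted p = 0.00102 and 0.0108).

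Of 17 Hippo kinases and scaffolds, among them STK3, STK4, SAV1, LATS1 and NF2, 0 were called by edgeR in any comparison. At an unadjusted p under 0.05, 7 were lower in MHCC97L-Src, 7 were lower in MHCC97L-Oxa, and 3 were lower and 1 higher in MHCC97L-Src against MHCC97L-Oxa. DESeq2 called 4, 0 and 1 of them, all lower. Without MHCC97L replicate 2, edgeR called 7 lower in MHCC97L-Src, where 22.2% of all genes were called lower and 5.62% higher, and 6 lower in MHCC97L-Oxa, beside 16.9% lower and 5.20% higher. Their median log2 fold change was −0.98 in MHCC97L-Src and −0.93 in MHCC97L-Oxa, and −0.27 and −0.07 without MHCC97L replicate 1, when NF2 (−0.68, adjusted p = 0.00733) and WWC1 (−0.63, adjusted p = 0.0180) were called lower in MHCC97L-Oxa. After the GC and length correction the medians were −0.48 and −0.24, and WWC1 was called lower in both resistant lines and NF2 in MHCC97L-Oxa. In MHCC97L-Src against MHCC97L-Oxa the median was −0.09 before that correction and 0.06 after it. Of 8 relatives of the members, 5 were tested against MHCC97L and 4 between the resistant lines, and 1 was called, ANKRD2, a muscle ankyrin repeat protein related to ANKRD1. The MHCC97L libraries held 31, 53 and 75 counts, those of MHCC97L-Src 3, 2 and 4, and those of MHCC97L-Oxa 3, 6 and 0. Both resistant lines lay far below the parent. Its log2 fold change was −4.00 ± 0.59 (SE, edgeR adjusted p = 0.0175) in MHCC97L-Src and −4.11 ± 0.83 (adjusted p = 0.0674) in MHCC97L-Oxa. The first call was lost without MHCC97L replicate 3 or any 1 MHCC97L-Src library (adjusted p = 0.0692 to 0.0859). In MHCC97L-Oxa, ANKRD2 was called without MHCC97L replicate 1 (adjusted p = 0.0151) or replicate 2 (adjusted p = 0.0137), after the GC and length correction (adjusted p = 0.00923) and by DESeq2 (adjusted p = 0.00118).

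Of 19 other genes often listed as YAP and TAZ targets, 1 was called lower in MHCC97L-Src against MHCC97L and 0 higher by edgeR, with 8 lower and 2 higher at an unadjusted p under 0.05, and DESeq2 called 5 lower and 2 higher. Lower calls numbered 4 without MHCC97L replicate 1 (THBS1, AXL at −1.29, FOXF2 at −0.94 and IGFBP3 at −1.31), 7 without replicate 2, and 0 without replicate 3 or any 1 MHCC97L-Src library. THBS1, the matrix protein thrombospondin-1, had 101, 49.6 and 44.0 CPM in MHCC97L, 12.9, 9.07 and 15.8 CPM in MHCC97L-Src, and 30.6, 33.8 and 24.8 CPM in MHCC97L-Oxa. The 3 lines did not overlap. The THBS1 log2 fold change was −2.28 ± 0.38 (edgeR adjusted p = 0.0226) against MHCC97L and −1.19 ± 0.20 (adjusted p = 0.00879) against MHCC97L-Oxa. After the GC and length correction the first was −1.67 (adjusted p = 0.00191). Uncorrected, the first was not called without MHCC97L replicate 3 or any 1 MHCC97L-Src library (adjusted p = 0.0614 to 0.105), and the second without MHCC97L-Oxa replicate 2 (adjusted p = 0.0728).

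In MHCC97L-Oxa against MHCC97L, 0 of the 18 tested targets were called by edgeR, 2 were higher and 3 lower at an unadjusted p under 0.05, and DESeq2 called 1 (NT5E, higher). Without MHCC97L replicate 1, 2 were called lower (THBS1, ARHGEF17) and 2 higher (NT5E, GADD45A), and without MHCC97L replicate 2, 4 were called lower and 0 higher. The median log2 fold change of the targets was −0.82 in MHCC97L-Src and −0.31 in MHCC97L-Oxa, and −0.32 and −0.10 without MHCC97L replicate 1. After the GC and length correction it was −0.05 and −0.25, with 8 of the 19 targets above 0 in MHCC97L-Src. That fit called 5 lower (THBS1, AXL, FOXF2, EDN1, ARHGEF17) and 1 higher (TNFAIP3) in MHCC97L-Src, and 3 lower (FOXF2, ARHGEF17, THBS1) and 1 higher (NT5E) in MHCC97L-Oxa.

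Between the resistant lines, 5 of the 19 targets were called lower in MHCC97L-Src and 1 higher, and the median log2 fold change of the 19 was −0.32. Beside THBS1, the receptor tyrosine kinase gene AXL was lower, with 72.0, 94.5 and 80.4 CPM in MHCC97L, 38.7, 28.1 and 37.4 CPM in MHCC97L-Src, and 110, 109 and 107 CPM in MHCC97L-Oxa. The 3 lines did not overlap. The log2 fold change of AXL between the resistant lines was −1.60 ± 0.13 (SE, edgeR adjusted p = 1.10e-04), and that of MHCC97L-Oxa against the parent was 0.41 ± 0.21 (adjusted p = 0.265). NT5E, which encodes the ectonucleotidase CD73, had 5.83, 2.37 and 3.50 CPM in MHCC97L. It had 2.25, 3.65 and 2.56 CPM in MHCC97L-Src and 8.13, 9.15 and 8.50 CPM in MHCC97L-Oxa. Against MHCC97L its log2 fold change was −0.36 (edgeR adjusted p = 0.635) in MHCC97L-Src and 1.18 (adjusted p = 0.198) in MHCC97L-Oxa. Between the resistant lines it was −1.54 ± 0.26 (edgeR adjusted p = 0.00879). FOXF2, a forkhead transcription factor, differed by −0.65 ± 0.12 (adjusted p = 0.0143). IGFBP3, an insulin-like growth factor binding protein, differed by −1.24 ± 0.26 (adjusted p = 0.0249). The kinase gene NUAK2 went the other way, with 18.2, 15.4 and 14.6 CPM in MHCC97L-Src and 7.85, 8.15 and 8.55 CPM in MHCC97L-Oxa, a log2 fold change of 1.03 ± 0.18 (adjusted p = 0.0116). AXL passed without each single library, whereas NT5E lost its call without MHCC97L-Src replicate 1 or MHCC97L-Oxa replicate 2 (adjusted p = 0.0547 and 0.0638). NUAK2, FOXF2 and IGFBP3 lost theirs without MHCC97L-Src replicate 1 or any 1 MHCC97L-Oxa library (adjusted p = 0.0548 to 0.116). With all 9 libraries in 1 fit, AXL alone was called, and the other 5 genes had adjusted p of 0.178 to 0.279.

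**Figure D5:**
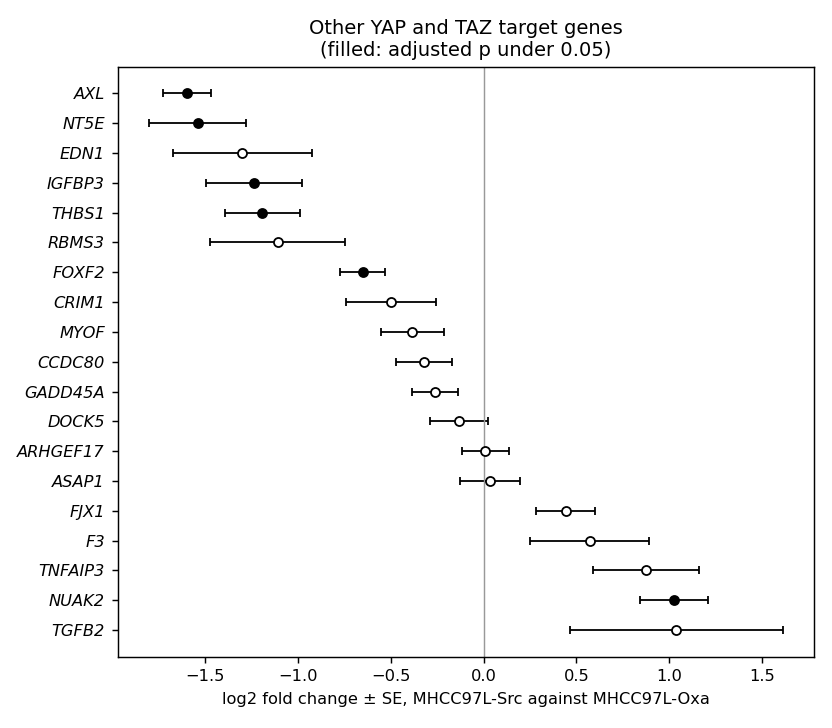
Log2 fold changes ± SE from edgeR for 19 other YAP and TAZ target genes, MHCC97L-Src against MHCC97L-Oxa, with filled points for an adjusted p under 0.05. The called genes on the left are led by AXL at −1.60 and NT5E at −1.54, and NUAK2 at 1.03 is the called gene on the right.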

How the data were processed

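Libraries of MHCC97L, MHCC97L-Src and MHCC97L-Oxa RNA, 3 of each line, were analysed (stranded, poly(A) selected, read from both ends). The submitters' processing notes name Trimmomatic 0.36, HISAT2 2.2.1.0 and GRCh38.p12, and the counting program is not given in the sources used here. The authors deposited raw read counts per gene without normalization, and FPKM values, which scale fragments by transcript length and sequencing depth, of the same 20030 genes. The counts were the input of every test, and FPKM served to compare genes with each other and in an alternative.

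Genes were filtered with filterByExpr (minimum count 10), scaled by TMM and tested with edgeR 4.0.16 (quasi-likelihood F-test, two-sided) on the 6 libraries of each pair of lines, in R 4.3.3. P-values were adjusted by Benjamini-Hochberg over all genes tested, and calls were made at an adjusted p under 0.05. The SE follows from the F statistic, as the size of the log2 fold change over the root of F. CPM in the text is a count divided by the library total and multiplied by 1000000, without TMM. Alternatives were DESeq2 1.42.0, its size factors, total counts, other filters, a replicate block, all 9 libraries in 1 fit, limma 3.58.1 on log2(FPKM + 1) or log2(FPKM + 0.1), a correction for GC content and length, and leaving out each library. The edgeR test was first run on simulated counts with the same spread for all genes and no GC effect. The MHCC97L libraries differ from that setting, so the run does not show how the test performs on them.

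A floor of 3 counts (0.165 to 0.177 CPM) was the smallest amount taken as detectable, and intervals and floors cover counting error only. The study describes MHCC97L and MHCC97L-Src as compared in independent experiments, while the labels do not say whether the libraries of a line came from separate cultures, so p-values measure the spread between these libraries. Gene positions are from GENCODE on GRCh38, and upstream windows from RefSeq on GRCh38.p14. Genes named are the 10 members, the 4 TEAD genes, up to 6 called genes per list and comparison with the smallest adjusted p, and the 5 genes most like CYR61 and CTGF (mean count of at least 50). Genes called in an alternative but not by edgeR with all 6 libraries were named, and ANKRD1 and the FPKM order were recomputed without that library, after the values were seen. The members and lists were chosen with earlier results of these data known. Coordinates of NOV, and the values of 1 other listed target gene, are not reported here.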

Additional observations from a re-analysis of the deposited data

Results flagged for a closer look

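Members whose change from MHCC97L differed between the resistant lines, by the direct edgeR comparison of MHCC97L-Src with MHCC97L-Oxa, were CYR61, CTGF, NOV and AMOTL2. The difference was −1.14 on the log2 scale for CYR61, −2.40 for CTGF, 1.53 for NOV and −0.87 for AMOTL2. The 3 libraries of MHCC97L-Src lay on 1 side of the 3 of MHCC97L-Oxa for each. These genes were chosen with these values known, and they are a description.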

How the results depend on the processing

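Each member's and named gene's direction was followed over up to 17 alternatives. CYR61 was called lower in MHCC97L-Src against MHCC97L and against MHCC97L-Oxa in every one, as was CTGF against MHCC97L-Oxa. Members called in MHCC97L-Src against MHCC97L numbered 3, against 6 at an unadjusted p under 0.05 with a change of more than 1 log2 unit, 5 with all 9 libraries in 1 fit and 5 after the GC and length correction, and 1 to 5 when leaving out each library. In MHCC97L-Oxa they numbered 2, and 0 to 3 when leaving out each library. In the direct comparison of the resistant lines they numbered 4, against 2 with all 9 libraries in 1 fit, and 3 to 5 when leaving out each library. After the GC and length correction 4 members were called lower there and 2 higher, beside 9.94% of all genes called. List genes called in MHCC97L-Src against MHCC97L numbered 2, against 14 with DESeq2, 7 without a filter, 1 with 10 counts required in every library, 10 with the replicate block, 16 with all 9 libraries, 1 with log2(FPKM + 1), 4 with log2(FPKM + 0.1), 10 with the GC and length correction, 5 with that correction and the block, and 0 to 17 when leaving out each library. In MHCC97L-Oxa they numbered 0, against 3 with DESeq2, 1 without a filter, 1 with all 9 libraries, 1 with log2(FPKM + 0.1), 10 with the GC and length correction, 5 with that correction and the block, and 0 to 13 when leaving out each library. Between the resistant lines they numbered 6, against 1 with all 9 libraries, and 1 to 11 when leaving out each library. Shares of all genes called moved as well. In MHCC97L-Src they were 2.13%, against 17.6%, 4.63%, 1.46%, 8.21%, 16.0%, 1.90%, 2.55%, 11.5% and 2.14% in the order just given for list genes, and 0.180% to 27.8% when leaving out each library. In MHCC97L-Oxa they were 0.953%, against 7.57%, 1.08%, 4.05%, 2.12%, 14.0% and 6.03%, and 0.0163% to 22.1%. Between the resistant lines they were 4.64%, against 0.703% with all 9 libraries, and 1.38% to 13.3%. The cause of these moves was not tested.

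Changes of sign were seen among uncalled values. WWTR1 in MHCC97L-Src turned to 0.032 with DESeq2, 0.033 with its size factors, 0.87 with the GC and length correction and 0.94 with that and the block, and ranged from −0.21 to 0.29 when leaving out each library. WWTR1 in MHCC97L-Oxa turned to 0.34 and 0.42 under the 2 corrected fits, and ranged from −0.45 to 0.10. NOV in MHCC97L-Oxa turned to 0.020 with DESeq2 and its size factors, 0.0011 without a filter, 0.073 with the replicate block, 0.050 with log2(FPKM + 0.1), 0.17 and 0.21 under the corrected fits, and ranged from −0.29 to 0.63. AMOTL1 in MHCC97L-Oxa turned to 0.033 and 0.078 under the corrected fits and ranged from −0.48 to 0.36, and in MHCC97L-Src from −0.20 to 0.60. YAP1 between the resistant lines ranged from −0.40 to 0.010. TEAD2 in MHCC97L-Src turned to 0.095 with DESeq2 and its size factors, 0.013 without a filter and 0.015 with the block, and ranged from −0.16 to 0.19, and in MHCC97L-Oxa from −0.29 to 0.026. TEAD3 in MHCC97L-Oxa turned to −0.030 and −0.028 under the corrected fits.

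Replicate numbers did not pair the libraries. Deviations of same-numbered libraries correlated on average at −0.0868, 0.0269 and −0.106 in the 3 comparisons, and 1 of 3 libraries correlated best with its own number. With the replicate block, genes called numbered 988 against 256, 92 against 115 and 406 against 556. ANKRD1 and ANKRD2 rest on few counts, and their levels in the resistant lines are at or near the floor. Without a filter, genes called numbered 702 against 256 in MHCC97L-Src.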
